A study of Trichoderma reesei with 6 samples.

Results

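The chitinases of *Trichoderma reesei* that lie outside subgroup B were examined here in the reference strain QPP and in the *gul1* deletion strain Δ*gul1* (dgul1 in the labels). They are the genes of the deposited table named *chi18-* or *chit18-* with a number from 1 to 11, together with TRIREDRAFT_66041, which is *chi18-18*. The rule found 10 of the 9113 genes listed, namely *chi18-1*, *chi18-2*, *chi18-3*, *chi18-4*, *chi18-5*, *chi18-6*, *chi18-7*, *chi18-9*, *chit18-11* and *chi18-18*. The rule used names only and no measured value. The other 2 numbers up to 11, 8 and 10, were not analysed here.

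Both strains derive from QP4, a uridine auxotroph made from strain QM9414 by deletion of *pyr4*, and both carry the *Aspergillus niger pyrG* marker. In Δ*gul1*, the marker replaced the major part of *gul1*, and 1 such transformant was studied. In QPP, *gul1* is intact and *pyrG* is integrated at random, so that the site of the marker differs between the strains as well. For each strain, 3 cultures were grown at 30°C for 36 hr with 2% glucose and then for 48 hr with 1% cellulose, and poly(A) RNA of the mycelia was sequenced as 1 library per culture. In such bulk RNA, fewer cells that express a gene and less of its RNA per cell cannot be told apart.

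Chitin, a polymer of N-acetylglucosamine, is a structural polymer of the fungal cell wall, and chitinases of glycoside hydrolase family GH18 cleave it. In filamentous fungi, these enzymes take part in remodelling of the wall during growth and branching, in recycling of the walls of old or dead hyphae and, in mycoparasitic *Trichoderma* species, in attack on other fungi. Fungal GH18 enzymes are divided into subgroups A, B and C. Those of subgroup A mostly lack a carbohydrate-binding module, while those of subgroup C are long proteins with LysM and other chitin-binding modules, and *chi18-1* and *chi18-9* belong to the latter. The gene models of these genes were by far the longest of the 10, with 4134 and 4596 bp, where the other 8 had between 870 and 1808 bp.

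The values are FPKM, the fragments of a gene relative to the length of its model and to the mapped fragments of the library, so that levels can also be set side by side between genes. The fragments behind each value could be recovered as whole numbers, and the totals were between 17654286 and 21659230 per library. *gul1* was between 79.9 and 86.9 FPKM in the QPP libraries and between 0.581 and 0.979 FPKM in the Δ*gul1* libraries. For fold changes, FPKM were divided by a size factor for each library and log2 was taken after adding 1, which understates changes of genes with low FPKM. Strains were compared with limma over the 9006 genes that had any fragment, and *p*-values were adjusted over all 9006 by the method of Benjamini and Hochberg. The thresholds of the study were used to call a gene differentially expressed, namely a log2 fold change above 1 in size together with *p* under 0.05 before adjustment.

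One question of the comparison is which chitinase genes differed in transcript level when *gul1* was deleted. Of the 10 genes, 1 was called, *chi18-18*, which was lower in Δ*gul1*. Over all genes tested, 3.95% were called, 1.87% as higher and 2.09% as lower. At an adjusted *p* under 0.05 from limma and with no threshold on the fold change, *chi18-6* was also higher, and *chi18-7* also lower, in Δ*gul1*. This makes 3 of the 9 genes with enough fragments for a fold change, where 29.6% of all genes tested passed the same threshold, 14.5% as higher and 15.0% as lower. The other 6 did not pass it. The 9 log2 fold changes had a median of −0.20, and that of all genes tested was 0.01. Their median size without sign was 0.27, and that of all genes tested was 0.17.

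The transcript of *chi18-18* (TRIREDRAFT_66041, from 372708 to 373644 on its scaffold in the QM6a assembly) has the shortest gene model of the 10, with 870 bp. It was at 22.5, 26.6 and 20.5 FPKM in QPP replicates 1 to 3, from 392, 501 and 336 fragments. In Δ*gul1* replicates 1 to 3 it was at 3.84, 6.05 and 4.52 FPKM, from 69, 93 and 76 fragments. Every Δ*gul1* library was thus far below every QPP library, with no overlap. The mean fell from 23.2 ± 3.12 to 4.81 ± 1.13 FPKM (SD, n = 3), which is 0.186 of the QPP level after scaling. On the log2 scale the fold change was −2.21 (SE 0.154, 95% interval −2.57 to −1.85, limma adjusted *p* = 5.93e-05). It was between −2.46 and −2.07 under the 13 alternatives tried, with an adjusted *p* of at most 0.000703 (limma).

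This interval overlapped with that of no other of the 9 genes with a fold change, the nearest of which, *chi18-2*, reached −0.62 at its lower end. With this decrease, the place of *chi18-18* in the order of the levels changed from rank 3 in QPP, beside *chi18-6*, to rank 8 in Δ*gul1*, where its libraries overlapped with those of *chi18-4* and *chi18-9*.

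**Figure D1:**
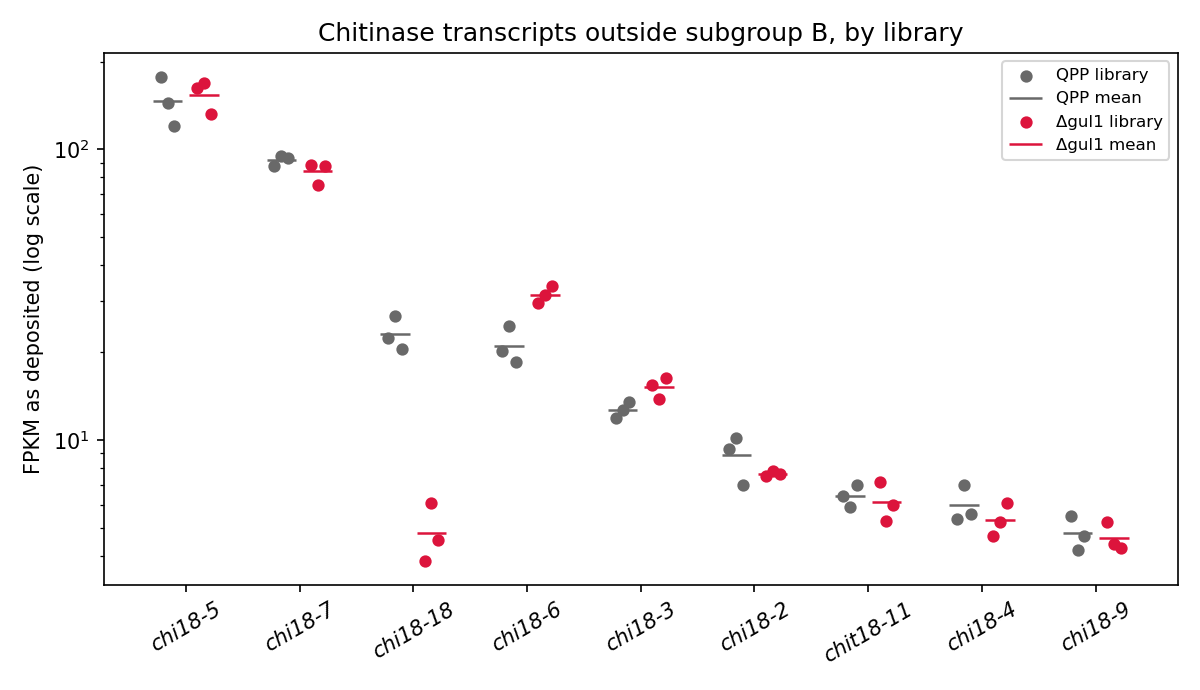
FPKM as deposited (log axis) of 9 chitinase genes in each QPP library (grey points) and Δ*gul1* library (red points), with the mean of each strain as a line and the genes in the order of their QPP mean. *chi18-18* fell from 20.5 to 26.6 FPKM in QPP to 3.84 to 6.05 FPKM in Δ*gul1*, *chi18-6* was higher in all 3 Δ*gul1* libraries, and *chi18-1* is not drawn because 5 of its 6 values are 0.

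*chi18-6* (TRIREDRAFT_2735, from 1757080 to 1758694 on its scaffold) was the single gene of the 10 that was higher in Δ*gul1* at an adjusted *p* under 0.05. Its level was 20.2, 24.7 and 18.6 FPKM in QPP replicates 1 to 3 and 29.5, 31.5 and 33.9 FPKM in Δ*gul1* replicates 1 to 3. The strains did not overlap, with between 518 and 790 fragments per library in QPP and between 822 and 968 in Δ*gul1*. The mean rose from 21.1 ± 3.17 to 31.6 ± 2.19 FPKM (SD, n = 3), a ratio of mean scaled FPKM of 1.34. The log2 fold change was 0.41 (SE 0.106, 95% interval 0.17 to 0.66, limma adjusted *p* = 0.0220), under the threshold for a call. The adjusted *p* was 0.0618 without QPP replicate 1, 0.0577 without QPP replicate 3, 0.0563 without Δ*gul1* replicate 2 and 0.0804 without Δ*gul1* replicate 3, and the log2 fold change was between 0.33 and 0.57 under all 13 alternatives.

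*chi18-7* (TRIREDRAFT_81598, from 67228 to 68795) was the second most abundant of these transcripts in both strains. It was at 87.9, 95.1 and 93.5 FPKM in QPP and at 88.4, 75.4 and 87.9 FPKM in Δ*gul1*, and these deposited values overlapped. After scaling, all QPP libraries were between 94.6 and 98.8 and all Δ*gul1* libraries between 71.5 and 84.5. The log2 fold change was −0.29 (SE 0.0722, 95% interval −0.46 to −0.13, limma adjusted *p* = 0.0193). With the FPKM as deposited it was −0.14 with an adjusted *p* of 0.187 (limma), and scaling the libraries moved the median over all genes tested from 0.14 to 0.01. Without QPP replicate 2, the log2 fold change was −0.28 with an adjusted *p* of 0.0681, and without QPP replicate 3, it was −0.29 with an adjusted *p* of 0.0515 (limma), so that the size of the difference hardly moved. Leaving out Δ*gul1* replicate 1 gave −0.34 and leaving out Δ*gul1* replicate 2 gave −0.22, both with an adjusted *p* under 0.05 (limma). For *chi18-7*, the scaling and leaving out Δ*gul1* replicate 1 or 2 thus moved the size of the difference. Its adjusted *p* was not under 0.05 with the FPKM as deposited, without QPP replicate 2 or without QPP replicate 3.

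*chi18-5* (TRIREDRAFT_80833, from 34807 to 36813) had the highest level of the 10 genes in every library. It is the counterpart of the endochitinase gene known as *ech42* or *chit42* in mycoparasitic *Trichoderma* species, which encodes a secreted enzyme. It was at 177, 144 and 120 FPKM in QPP replicates 1 to 3 and at 162, 169 and 132 FPKM in Δ*gul1* replicates 1 to 3. The ranges of the strains overlapped almost entirely, and replicate 3 was the lowest library in both. The means were 147 ± 28.7 and 154 ± 19.8 FPKM (SD, n = 3), and the estimated log2 fold change was −0.08 (SE 0.155, 95% interval −0.44 to 0.28, limma adjusted *p* = 0.737). Its sign was not stable, with 0.08 for the FPKM as deposited, 0.07 when QPP replicate 1 was left out and 0.03 when replicate 3 of Δ*gul1* was. Leaving out QPP replicate 3 gave −0.22. Between 4103 and 6424 fragments stood behind each value.

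*chi18-3* and *chi18-2* were at intermediate levels. *chi18-3* (TRIREDRAFT_62704, from 376023 to 377485) was at 11.9, 12.7 and 13.5 FPKM in QPP and 15.5, 13.8 and 16.3 FPKM in Δ*gul1*. The deposited values did not overlap, but the scaled ones did, and the log2 fold change was 0.09 (95% interval −0.12 to 0.31, limma adjusted *p* = 0.511). *chi18-2* (TRIREDRAFT_59082, from 890960 to 892206) was at 9.30, 10.2 and 6.99 FPKM in QPP and 7.53, 7.80 and 7.61 FPKM in Δ*gul1*. In these deposited values, the QPP libraries stood on both sides of those of Δ*gul1*, with replicate 3 as the low one. After scaling, the strains only just separated, with the lowest QPP library and the highest Δ*gul1* library both at 7.39. Its log2 fold change was −0.31 (95% interval −0.62 to −0.01, limma adjusted *p* = 0.114). Without QPP replicate 3, it was −0.46 with an adjusted *p* of 0.0168 (limma).

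The other expressed genes, *chit18-11*, *chi18-4* and *chi18-9*, were at or below 7.15 FPKM in all libraries. *chit18-11* (TRIREDRAFT_56448, from 1800342 to 1801714) was at 6.44, 5.88 and 6.98 FPKM in QPP and 7.15, 5.26 and 5.99 FPKM in Δ*gul1*, a log2 fold change of −0.20 (95% interval −0.49 to 0.09, limma adjusted *p* = 0.272). *chi18-4* (TRIREDRAFT_62645, from 827829 to 829126) was at 5.36, 6.99 and 5.56 FPKM in QPP and 4.67, 5.22 and 6.09 FPKM in Δ*gul1*, a log2 fold change of −0.27 (95% interval −0.56 to 0.01, limma adjusted *p* = 0.133). The deposited values of both genes overlapped between the strains.

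*chi18-9* (TRIREDRAFT_72339, from 514400 to 519332), the subgroup C gene with the longest model, was at 5.49, 4.20 and 4.67 FPKM in QPP and 5.23, 4.38 and 4.24 FPKM in Δ*gul1*. The strains overlapped, with a log2 fold change of −0.17 (95% interval −0.47 to 0.12, limma adjusted *p* = 0.357). Because of the long model, these low FPKM rested on between 355 and 505 fragments per library.

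*chi18-1* (TRIREDRAFT_71245, from 472797 to 477180), the other subgroup C gene, had 1 fragment in QPP replicate 1, which is 0.0121 FPKM, and 0 in the other 5 libraries. A count of 0 allows up to 3 fragments, which for this gene is between 0.0335 and 0.0411 FPKM in each library, by counting error only. The transcript was not detectable at this depth in any Δ*gul1* library, and no fold change is given.

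The 95% intervals of all genes but *chi18-18* and *chi18-1* lay within an absolute log2 fold change of 1. A change of the size that is called was therefore outside the interval of each of these 8 genes, while smaller changes of the 6 that did not pass the adjusted threshold were not excluded. After scaling, QPP and Δ*gul1* libraries were fully separate for 5 of the 9 genes, *chi18-2*, *chi18-4*, *chi18-6*, *chi18-7* and *chi18-18*. The same held for 45.0% of all genes tested, which include genes with too few fragments for a fold change. For each of the 5, a two-sided exact permutation test gave *p* = 0.1, the smallest that 3 libraries against 3 allow.

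**Figure D2:**
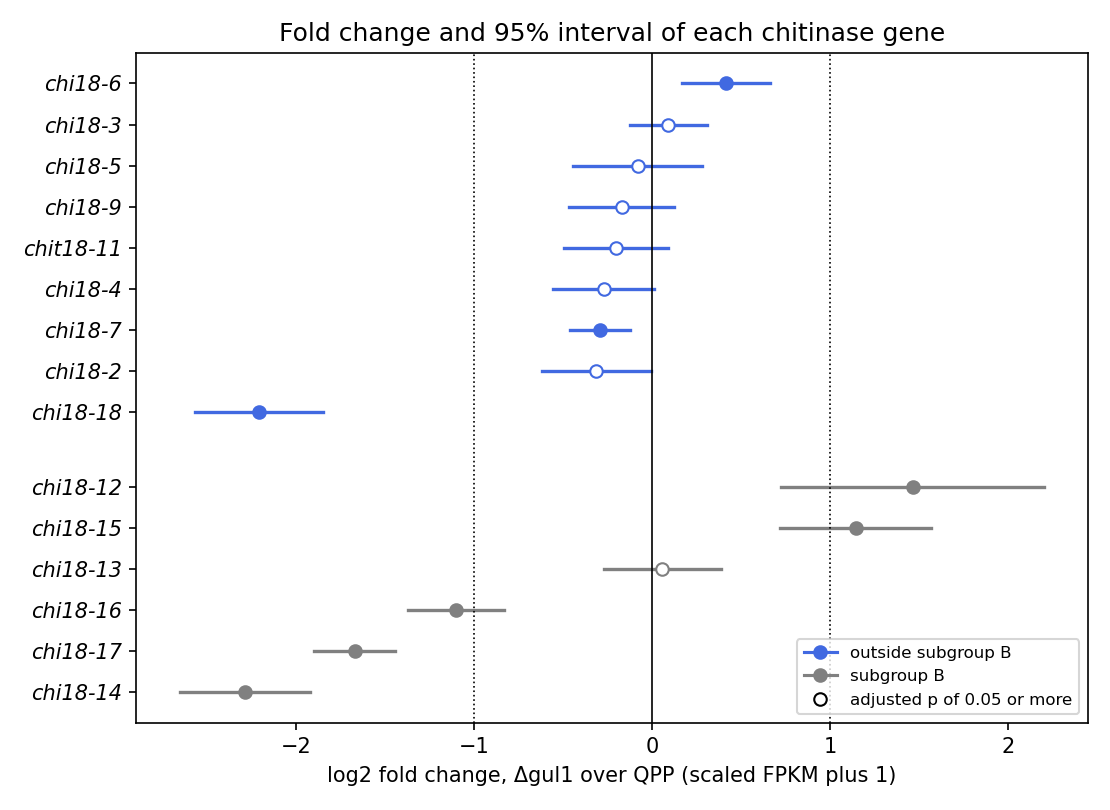
Log2 fold change of Δ*gul1* over QPP (scaled FPKM plus 1) with its 95% interval from limma, for 9 chitinase genes outside subgroup B (blue) and the 6 of subgroup B (grey); open points have an adjusted *p* of 0.05 or more, and dotted lines mark a log2 fold change of −1 and 1. *chi18-18* at −2.21 stands apart from the other blue points, which are between −0.31 and 0.41, while the grey points are spread from −2.29 to 1.46.

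In the order of their mean FPKM, *chi18-5* was followed in both strains by *chi18-7*, and no library of the one overlapped with a library of the other within a strain. In QPP, *chi18-18* at 23.2 and *chi18-6* at 21.1 FPKM came next and overlapped, and in Δ*gul1* *chi18-6* alone held this place with 31.6 FPKM. *chi18-3* and then *chi18-2* followed in both strains, each separate from its neighbours in the order. *chit18-11*, *chi18-4* and *chi18-9* formed the low end, where each neighbouring pair overlapped in QPP. Among all genes tested, *chi18-5* was at the percentile 89.2 of mean FPKM over the 6 libraries, *chi18-7* at 79.5, *chi18-6* at 44.5 and *chi18-9* at 18.3.

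Together, *chi18-5* and *chi18-7* made up between 72.4 and 77.3% of the summed FPKM of the 10 genes in each library. The share of *chi18-18* was 7.20 ± 0.791% in QPP and 1.54 ± 0.358% in Δ*gul1* (SD, n = 3), and that of *chi18-6* was 6.56 ± 0.839% and 10.1 ± 1.14%. In QPP replicates 1 to 3 the sum was 346, 330.2 and 290.4 FPKM, and in Δ*gul1* replicates 1 to 3 it was 324, 318 and 298 FPKM. The sums of the strains overlapped, both as deposited and after scaling (307 to 373 in QPP and 279 to 309 in Δ*gul1*).

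**Figure D3:**
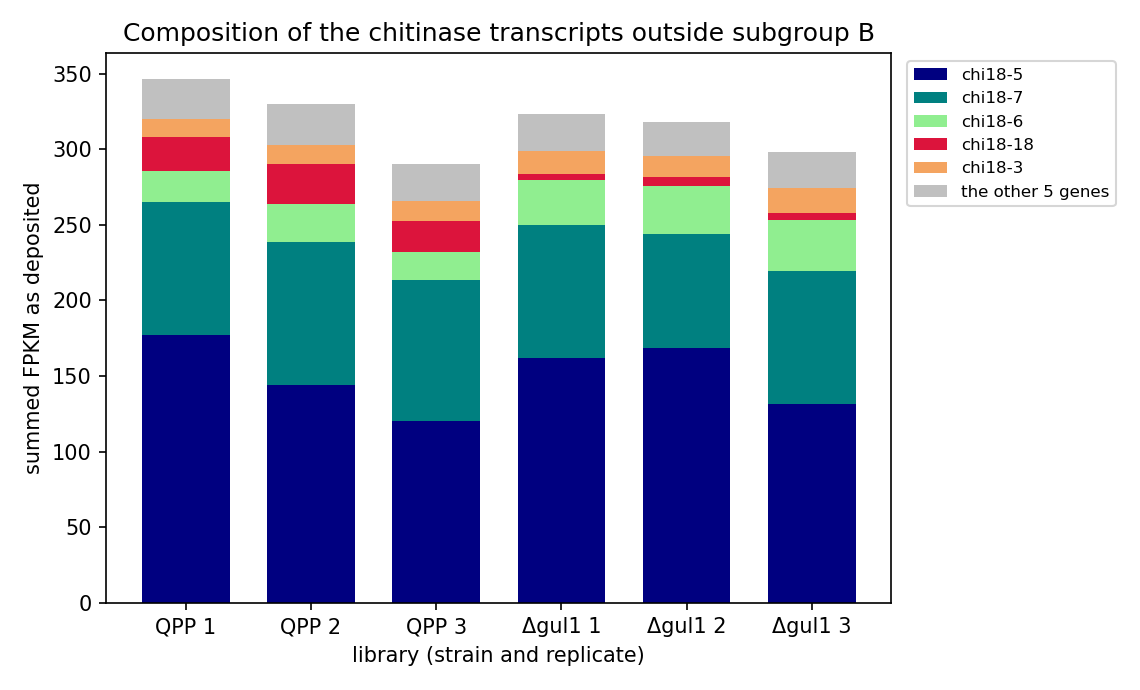
Summed FPKM as deposited of the 10 chitinase genes in each library, divided by gene, with 5 genes drawn one by one and the other 5 pooled. The sums are between 290.4 and 346 FPKM, *chi18-5* and *chi18-7* make up between 72.4 and 77.3% of each bar, and the red part of *chi18-18* is smaller in every Δ*gul1* library.

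The spread between cultures of the same strain varied among these genes, each value resting on 3 cultures. The coefficient of variation (CV, the SD divided by the mean) of *chi18-5* was 19.5% in QPP and 12.8% in Δ*gul1*, where the number of fragments alone gives 1.36 and 1.37%. For *chi18-6*, the CV was 15.0% in QPP against 3.97% from counting, and 6.93% in Δ*gul1* against 3.34%. *chi18-18* had a CV of 13.5% in QPP and 23.6% in Δ*gul1*, against 4.94 and 11.2% from counting. In QPP, the CV was near that from counting for *chi18-3* (6.17 against 6.03%) and *chit18-11* (8.55 against 8.27%). *chi18-2* in Δ*gul1* had a CV of 1.82% against 7.99% from counting.

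**Figure D4:**
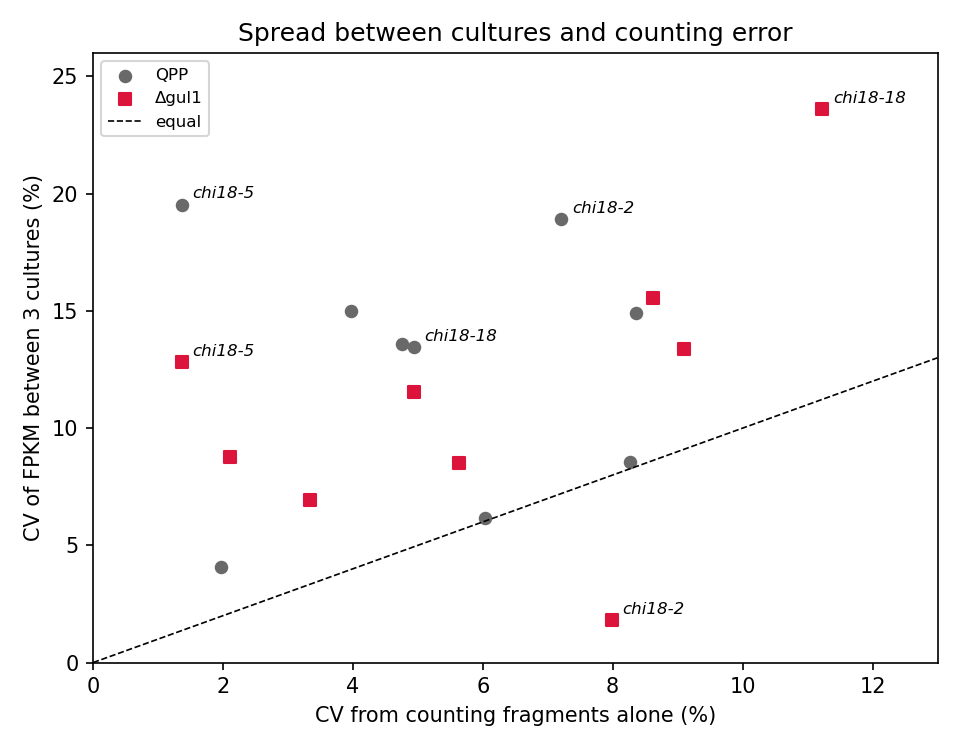
CV of FPKM between the 3 cultures of a strain against the CV that counting fragments alone gives, both in percent, for 9 chitinase genes in QPP (circles) and Δ*gul1* (squares); the dashed line marks equal values. *chi18-5* is far above the line with 19.5 and 12.8% at a counting CV under 1.4%, and *chi18-2* in Δ*gul1* is below it.

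The 6 subgroup B genes, *chi18-12* to *chi18-17*, offer a comparison within the same family. Of these, 2 were called as higher (*chi18-12* and *chi18-15*) and 3 as lower (*chi18-14*, *chi18-16* and *chi18-17*) in Δ*gul1*. The shares called over all genes tested were 1.87% as higher and 2.09% as lower. For the 6 genes, the median size of the log2 fold change without sign was 1.30. It was 0.27 for the 9 genes outside subgroup B, a difference that was not tested. The FPKM of subgroup B summed to 209 ± 56.9 in QPP and 499 ± 71.1 in Δ*gul1* (SD, n = 3). Most of these sums came from the 2 genes called as higher. Mean FPKM in QPP and Δ*gul1* were 76.9 and 222 for *chi18-12* and 108 and 265 for *chi18-15*. The summed FPKM of the 10 other genes was 1.35 to 2.02 times this in the QPP libraries and 0.583 to 0.715 times in the Δ*gul1* libraries.

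Among further genes of chitin metabolism that names or annotation identify, *nag1* and *nag2* encode N-acetylglucosaminidases, which split the oligomers that chitinases release. *nag1* was at 115, 105 and 92.4 FPKM in QPP and 159, 175 and 151 FPKM in Δ*gul1*. It was higher in all Δ*gul1* libraries, with a log2 fold change of 0.47 (SE 0.0973, limma adjusted *p* = 0.00899) and no call. *nag2* had a log2 fold change of −0.0008 (95% interval −0.14 to 0.14, limma adjusted *p* = 0.994). Of 2 genes named after their relation to the family, *chi18-rel1*, at 301 ± 26.2 FPKM in QPP, and *chi18-rel2*, at 38.3 ± 1.65 FPKM, neither passed an adjusted *p* of 0.05 (limma). Of 3 chitosanase genes, a list that the study chose on these libraries, TRIREDRAFT_42152 and TRIREDRAFT_70341 were called as higher, with log2 fold changes of 1.35 and 1.16.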

How the data were processed

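Poly(A) RNA of 3 cultures each of QPP and Δ*gul1* was sequenced from both ends. The authors used HISAT2 to map reads to the QM6a assembly and HTSeq to count them on genes, and deposited FPKM for each library. Whether strand was used is not given in the sources used here. Strain and replicate come from the labels. Locus tags and coordinates come from the RefSeq gene table of the same assembly, which names no scaffolds (9109 of 9113 names matched). None of the 10 genes overlaps its neighbours.

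Whole fragments were recovered from the steps of the FPKM (tolerance 0.0001) for all 9006 genes above 0, for 8649 with 1 possible gene length, the 10 genes included. Totals per library were 17654286 to 21659230, and intervals and floors cover counting error only where they rest on fragments. Each library was divided by its median-of-ratios size factor (0.930 to 1.07), log2 was taken with a pseudocount of 1, and limma 3.58.1 (R 4.3.3; lmFit, eBayes with a trend) was fitted with strain as the only term. A gene with at most 3 fragments in every library got no fold change. The fit, tested on simulated data for this comparison with 8189 genes of which 200 were changed 4-fold, recovered 197. The simulation left out genes with few fragments and used an assumed spread between cultures. Smaller changes were not simulated.

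All genes chosen by the rule were named, with the called genes and the highest of the other lists. The gene table gives no product text, so no list of chitin synthase or deacetylase genes was made. The genes and lists were chosen with earlier results of these data known. Python 3.11.15, numpy 2.4.6 and pandas 2.3.3 were used.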

Additional observations from a re-analysis of the deposited data

How the results depend on the processing

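For these genes, 13 alternatives were computed: FPKM as deposited, upper quartile scaling, a pseudocount of 0.1, eBayes without a trend, a mean of 1 FPKM as minimum, the replicate number as a block, limma-voom on the recovered fragments with TMM scaling, and each of the 6 libraries left out. In all 13, 1 gene was called, *chi18-18*, and 2 or 3 genes had an adjusted *p* under 0.05 (limma). The median log2 fold change of the 9 genes moved from −0.202 to −0.0652 with the FPKM as deposited. That of all genes tested moved in the same direction, from 0.01 to 0.14. Leaving out single libraries gave −0.254 to −0.153 for the 9 genes. Of the 13 other chitin genes, between 6 and 8 were called, against 7. The 7 include 2 of the 3 chitosanase genes, a list that the study chose on these libraries, so the count is not an unbiased share. Over all genes tested, 356 (3.95%) were called, and 549 with the pseudocount of 0.1 or 595 with limma-voom. Calls that were higher made up 61.2% with the FPKM as deposited, against 47.2%. The values of *chi18-2*, *chi18-6* and *chi18-7* that crossed the threshold are given with these genes, and the cause was not tested.

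The labels number the replicates of both strains 1 to 3, but same-numbered libraries did not deviate together in every pair. Their correlations over 8153 genes were −0.09, 0.18 and 0.37. Δ*gul1* replicate 1 correlated best with QPP replicate 3 (0.12) and Δ*gul1* replicate 2 with QPP replicate 1 (0.33). Only Δ*gul1* replicate 3 correlated best with its same-numbered library. With the replicate block, 1 gene was called and 3 had an adjusted *p* under 0.05 (limma). In this balanced design, the block cannot change the log2 fold changes, only their errors and *p*-values. The same holds for eBayes without a trend and for the minimum of 1 FPKM. Depth allows no fold change for *chi18-1*, which had 1 fragment in all. It also limits the precision of the genes with few fragments, such as *chi18-18* in Δ*gul1* (a CV of 11.2% from counting).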

Other observations

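On the assembly, the 20 genes next to these chitinase genes, 1 on each side, were all tested, and none was called, against 3.95% of all genes tested. Of these 20, 4 had an adjusted *p* under 0.05 (limma), against 29.6% of all genes tested in either direction. All 4 were lower in Δ*gul1*, as were 15.0% of all genes tested. They were TRIREDRAFT_53776 beside *chi18-1* (log2 fold change −0.57), TRIREDRAFT_81599 beside *chi18-7* (−0.30, against −0.29 for *chi18-7*), TRIREDRAFT_110853 beside *chi18-9* (−0.84) and TRIREDRAFT_66103 beside *chi18-18*. The genes beside *chi18-18* are 2881 and 2838 bp away. The one before it, TRIREDRAFT_65948, had a log2 fold change of 0.01 (adjusted *p* = 0.967, limma), and the one after it, TRIREDRAFT_66103, of −0.58 (adjusted *p* = 0.00295, limma), against −2.21 for *chi18-18* itself. *chi18-6* and *chit18-11* lie in the same run of rising coordinates with 9 genes and 41647 bp between them. Their log2 fold changes were 0.41 and −0.20, and the genes directly beside each had values between −0.26 and 0.10.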
